A study of Mus musculus with 4 samples.

Results

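The 9 genes described here, *Chaf1a*, *Chaf1b*, *Rbbp4*, *Trim28*, *Sumo2*, *Zmym2*, *Smchd1*, *Rif1* and *Atrx*, encode factors of heterochromatin and chromatin assembly whose loss is known to raise 2-cell (2C) genes in mouse embryonic stem cells. They were chosen by name, with earlier results of these data known. All 9 were found among the 26022 genes in the table and were among the 14259 genes tested. RNA was measured in late 2C embryos of the outbred ICR strain, which were collected as zygotes from females of 7 to 8 weeks that had been injected with gonadotropins and mated with ICR males. Control embryos were kept in KSOM medium, and the treated embryos in KSOM with 200 μM Mdivi-1, a small molecule that inhibits the mitochondrial fission GTPase DRP1. After 16 h of culture, RNA of 8 to 10 pooled embryos was amplified by Smart-Seq2, and each group has 2 libraries.

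As background, DNA that has just been replicated is packed again into nucleosomes by CAF-1, the chaperone of histones H3 and H4 that is built from CHAF1A, CHAF1B and RBBP4. TRIM28 is the corepressor that KRAB zinc finger proteins bring to transposons, and it carries SETDB1, which methylates histone H3, and HP1 proteins, which bind that mark. SUMO2 is a small protein joined to lysines of TRIM28 and other silencing factors, ZMYM2 binds proteins that carry it, SMCHD1 is a non-canonical SMC protein of the inactive X chromosome, RIF1 brings protein phosphatase 1 to late-replicating chromatin, and ATRX places histone H3.3 in heterochromatin together with DAXX. The 2C stage is the time of the major activation of the mouse embryo's genome, when transcripts left by the oocyte are also being cleared.

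The 4 libraries held 17712075 to 20077326 counts in genes, and 14793 to 16311 genes had a count. All 14 measured 2C marker genes had positive log2 fold changes (median 1.22), and 7 of them were under an unadjusted p of 0.05 with edgeR. Transcripts of 12 oocyte markers summed to 2043 and 3656 CPM (counts scaled to library size, as CPM by edgeR) in controls and to 4916 and 6219 CPM in treated embryos, and their part in the results below was not tested. Markers of cumulus and granulosa cells summed to 14.3 and 21.6 CPM in controls and to 31.8 and 33.8 CPM in treated embryos, with 4 of 12 at 0 in every library, among them *Has2* and *Amh*. Sperm markers summed to 1.51 to 6.07 CPM and blastocyst lineage markers to 48.6 to 71.1 CPM over the 4 libraries. *Dnm1l*, which encodes DRP1, was at 37.9 and 33.1 CPM in controls and at 93.7 and 91.3 CPM in treated embryos. Mdivi-1 acts on the protein, so that this RNA checks no label. Each CPM value is also scaled by TMM. In pooled embryos fewer cells with an RNA cannot be told apart from less of that RNA per cell. Each value is a share of its library, so a rise of other RNAs can also lower it.

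The sequences of *Sumo2* and its relatives are shown first, because *Sumo2* is the only member with many near-identical copies and only uniquely mapped reads were counted. The window is coding bases 49 to 198 of the 288 coding bases of *Sumo2*, 150 bases read from GENCODE M21 transcripts on GRCm38. *Sumo2* lies on the minus strand at chr11:115523102-115536276, *Sumo3* on the plus strand at chr10:77606097-77618331 and the processed pseudogene *Gm13690* on the minus strand at chr2:80629284-80629568. Lower case marks bases that match *Sumo2* and capitals mark bases that differ from it.
Sumo2: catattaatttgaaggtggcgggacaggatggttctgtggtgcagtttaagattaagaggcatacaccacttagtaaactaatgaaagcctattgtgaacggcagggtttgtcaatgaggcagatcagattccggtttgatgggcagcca
Sumo3: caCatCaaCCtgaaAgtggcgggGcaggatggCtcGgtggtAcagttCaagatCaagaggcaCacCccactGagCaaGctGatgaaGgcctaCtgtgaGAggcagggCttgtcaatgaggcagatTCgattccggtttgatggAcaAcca
Gm13690: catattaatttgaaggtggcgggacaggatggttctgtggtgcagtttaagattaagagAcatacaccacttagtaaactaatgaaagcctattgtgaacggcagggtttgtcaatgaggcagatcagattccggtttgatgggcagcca
*Sumo3* matched *Sumo2* at 124 bases of the window and differed at 26, so that reads can tell these 2 functional genes apart here. *Gm13690* differed at 1 base, and the pseudogene *Gm10241* at chr16:20176727-20177012 at 0. A read pair that lies wholly inside the window fits *Sumo2* and *Gm10241* alike and is not counted for *Sumo2*. Of the 1051 bases of the *Sumo2* transcript, 347, or 33.0%, lay in alignments of at least 150 bases and 95% identity with 12 other genes, 11 of which are annotated as pseudogenes. How many reads *Sumo2* lost in this way was not measured.

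Among the 9 genes, *Sumo2* was the only one with a difference past an unadjusted p of 0.05 in the edgeR quasi-likelihood test, and 7 of the 9 had a negative log2 fold change in treated embryos. The median over the 9 was -0.40, beside 0.03 over all genes tested, of which 48.7% were negative. With 1 gene lower and 0 higher, the members are read against a background of 7.64% of all genes lower and 8.27% higher at that threshold. No member and no other gene passed an adjusted p of 0.05 with edgeR, whose smallest adjusted p over all genes was 0.109. DESeq2 called *Sumo2* lower at an adjusted p of 0.05 and none of the other 8 members, beside 2.81% of all genes called lower and 3.28% called higher. Both treated libraries lay below both controls for 5 members and above both for 2, which compares with 23.9% and 26.1% of all genes.

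**Figure D1:**
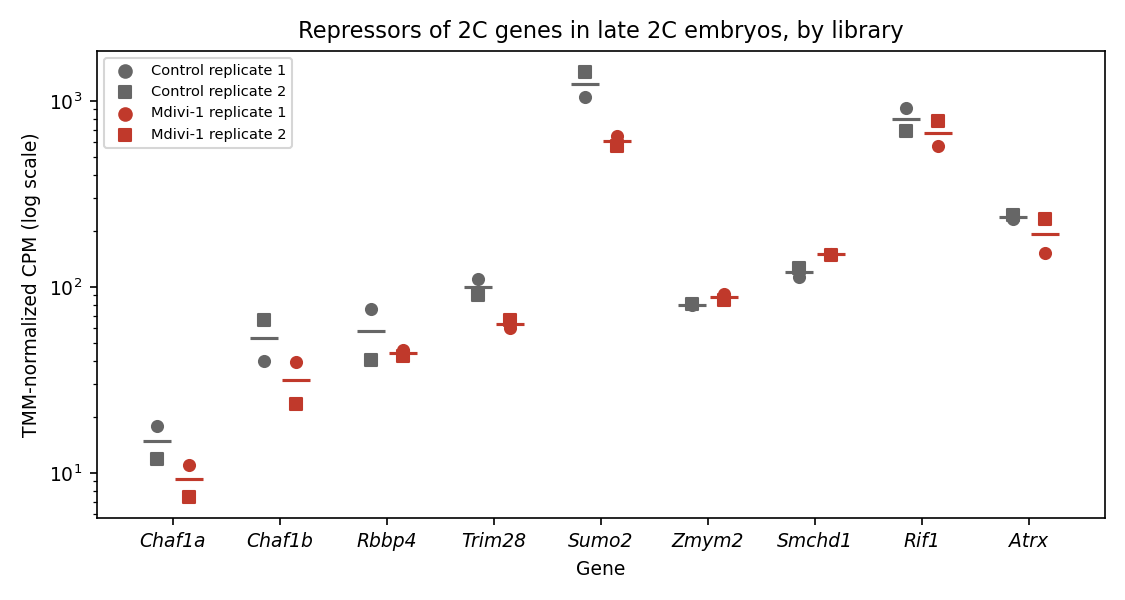
TMM-normalized CPM of the 9 genes (logarithmic axis) in the 2 control libraries (grey) and the 2 Mdivi-1 libraries (red), with circles for replicate 1, squares for replicate 2 and lines at the group means. *Sumo2* was at 1045 and 1432 CPM in controls and at 648 and 575 CPM in treated embryos, while the groups of *Rbbp4* and *Rif1* overlap.

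*Sumo2* had the largest difference of the 9, and the highest level per kilobase of exon in both groups, although in CPM *Rif1* had the higher mean in treated embryos. Its values were 1045 and 1432 CPM in control replicates 1 and 2, and 648 and 575 CPM in Mdivi-1 replicates 1 and 2. Both treated libraries were below both controls, and the gap between the groups was wider than that within either group on the log2 scale, where the controls were 0.45 apart and the treated libraries 0.17. The mean was 50.6% lower, from 1238 ± 274 CPM to 612 ± 52.0 CPM (SD, n = 2 libraries each). With edgeR the log2 fold change was -1.02 with a standard error of 0.33 (unadjusted p = 0.0150, Benjamini-Hochberg adjusted p = 0.217), and 14.1% of all genes had a log2 fold change at or below it. With DESeq2 the adjusted p was 0.0175. The DESeq2 adjusted p was 0.0002 without control replicate 1, 0.0528 without control replicate 2, 0.316 without Mdivi-1 replicate 1 and 0.347 without Mdivi-1 replicate 2. The log2 fold change by edgeR stayed between -1.23 and -0.79 in these 4 cases. Over the whole table DESeq2 called 867 genes with all libraries. That number rose without control replicate 1 and fell without any other library, most without a treated one.

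*Sumo3*, which encodes a protein nearly the same as mature SUMO2, had a higher mean in treated embryos. It was at 51.7 and 33.1 CPM in controls and at 78.4 and 54.9 CPM in treated embryos, and control replicate 1 was nearly level with Mdivi-1 replicate 2, so that the groups were barely apart. Its log2 fold change was 0.65 ± 0.37 (SE) and did not pass the test (edgeR unadjusted p = 0.117). Per kilobase of exon, *Sumo3* was far below *Sumo2* in every library.

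Among 6797 genes with a mean of at least 10 CPM, *Tsc22d2* and *Rnf11* were 2 of the 3 genes nearest to *Sumo2* in level and pattern over the 4 libraries, at Euclidean distances of 0.263 and 0.356 in log2 CPM. *Tsc22d2* was at 983 and 1275 CPM in controls and at 601 and 519 CPM in treated embryos.

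The 3 subunits of CAF-1 were lower on average in treated embryos, and none passed a test. *Chaf1a*, the large subunit, at chr17:56040439-56072289, was at 17.8 and 11.8 CPM in controls and at 11.0 and 7.45 CPM in treated embryos. The groups of *Chaf1a* did not overlap, but the lower control and the higher treated library were less than 1 CPM apart. *Chaf1b*, the middle subunit, at chr16:93883901-93906115, was at 40.1 and 66.5 CPM in controls and at 39.5 and 23.5 CPM in treated embryos. Here control replicate 1 and Mdivi-1 replicate 1 were nearly level, and the lower mean came from the other library of each group. The log2 fold changes were -0.68 ± 0.54 (SE) for *Chaf1a* and -0.76 ± 0.42 (SE) for *Chaf1b*, with unadjusted p = 0.242 and 0.109 by edgeR and adjusted p = 0.608 and 0.422. *Rbbp4*, a histone-binding subunit that CAF-1 shares with other complexes, at chr4:129307100-129335370, was at 76.0 and 40.4 CPM in controls and at 45.6 and 42.5 CPM in treated embryos. Both treated libraries of *Rbbp4* lay between the 2 controls, and its log2 fold change of -0.40 ± 0.39 (SE; edgeR unadjusted p = 0.328) became 0.13 without control replicate 1.

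*Chaf1a* and *Chaf1b* did not keep a fixed ratio even between controls. The exact permutation test used for the ratios below cannot give a p under 0.333 with 2 libraries against 2. Its p-values therefore show neither a difference nor its absence. Per kilobase of exon, *Chaf1a* was 0.235 and 0.0938 of *Chaf1b* in controls and 0.147 and 0.168 of it in treated embryos, a difference of 0.08 in mean log2 ratio (exact permutation test, two-sided, p = 1.0). *Rbbp4* was 0.0688 and 0.0301 of its paralog *Rbbp7* in controls and 0.0424 and 0.0283 of it in treated embryos, a difference of -0.39 in mean log2 ratio (exact permutation test, two-sided, p = 0.667). *Rbbp7* itself was at 368 and 446 CPM in controls and at 358 and 499 CPM in treated embryos, so that it was the far more abundant of the pair in every library. The exons of *Chaf1a* share 4648 bases with *Ubxn6* on the opposite strand. Smart-Seq2 keeps no strand, so reads of the 2 genes cannot be told apart there. If such reads were left out of the counts, the ratio of *Chaf1a* to *Chaf1b* is understated, which was not measured. *Ubxn6*, chosen after its values were seen, had raw counts of 359 and 125 in controls and of 151 and 95 in treated embryos. The exons of *Rbbp4* share 796 bases with *Gm26722* and 782 with *Sync*, also on the opposite strand.

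*Trim28* was lower in both treated libraries than in both controls. It lies at chr7:12999114-13031035 and was at 110 and 90.2 CPM in controls and at 60.3 and 66.1 CPM in treated embryos. The groups were further apart than the libraries within either, and the mean was 36.8% lower. Its log2 fold change was -0.66 ± 0.30 (SE), with an unadjusted p of 0.0578 and an adjusted p of 0.331 by edgeR and an adjusted p of 0.297 by DESeq2.

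*Zmym2* and *Smchd1* were the only 2 members with a positive log2 fold change. *Zmym2*, at chr14:56886653-56962701, was at 79.8 and 80.7 CPM in controls and at 91.7 and 85.2 CPM in treated embryos. *Smchd1*, at chr17:71344489-71475343, was at 114 and 127 CPM in controls and at 151 and 148 CPM in treated embryos. In both genes the treated libraries lay above both controls, and the libraries within a group were close. The log2 fold change was 0.14 ± 0.29 (SE) for *Zmym2* and 0.31 ± 0.28 (SE) for *Smchd1*, and neither passed a test (edgeR unadjusted p = 0.638 and 0.299).

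*Rif1* was abundant and varied between replicates in both groups, while *Atrx* varied in treated embryos only. *Rif1*, at chr2:52072832-52122383, was at 915 and 686 CPM in controls and at 569 and 780 CPM in treated embryos. Mdivi-1 replicate 2 lay between the 2 controls, and the log2 fold change of -0.25 ± 0.33 (SE) did not pass the test (edgeR unadjusted p = 0.480). *Atrx*, on the X chromosome at chrX:105797615-105929403, was at 233 and 243 CPM in controls and at 152 and 232 CPM in treated embryos. The groups of *Atrx* barely separated, since Mdivi-1 replicate 2 was nearly level with control replicate 1, and the log2 fold change was -0.31 ± 0.32 (SE; edgeR unadjusted p = 0.363).

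**Figure D2:**
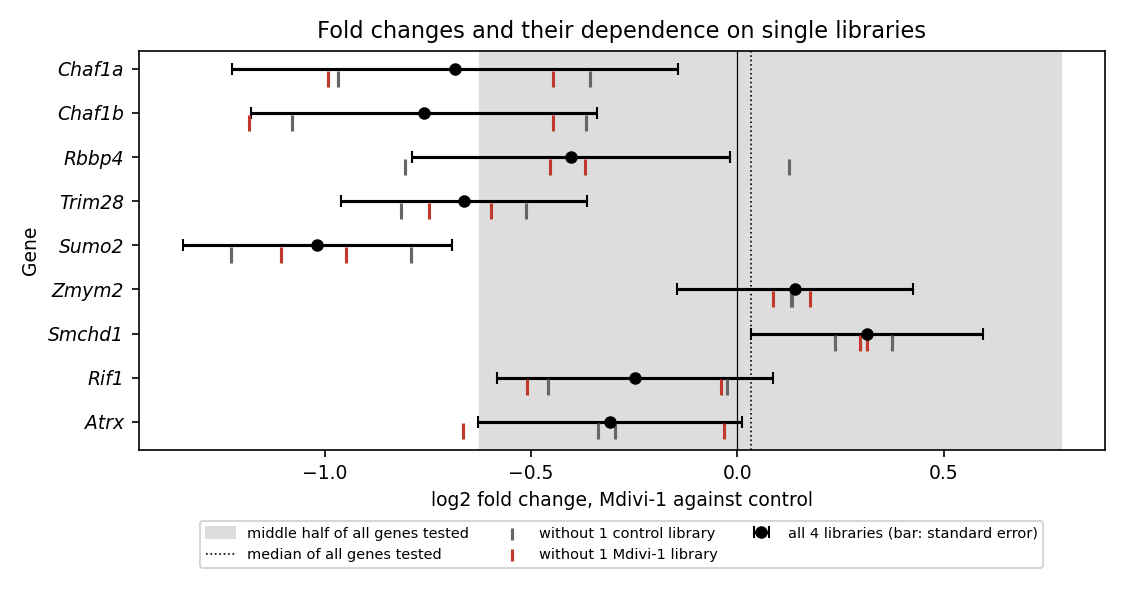
Log2 fold change of Mdivi-1 against control embryos for the 9 genes by edgeR, with the standard error as bars, ticks for the value without 1 control (grey) or 1 Mdivi-1 library (red), all genes tested between their lower and upper quartiles as a grey band and their median as a dotted line. *Sumo2* lies at -1.02 and *Smchd1* at 0.31, and *Rbbp4* is the one gene whose ticks fall on both sides of 0.

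Per kilobase of exon, the levels in control embryos ran from *Sumo2* at 713 ± 158 CPM per kilobase (SD, n = 2) over *Rif1* at 76.2 ± 15.4 and *Trim28* at 24.1 ± 3.36 to *Chaf1a* at 1.67 ± 0.481. Between *Trim28* and *Chaf1a* stood *Chaf1b* at 11.4, *Atrx* at 10.9, *Zmym2* at 10.2, *Rbbp4* at 6.66 and *Smchd1* at 6.02 CPM per kilobase. The length used is that of all annotated exons of a gene together. For *Smchd1* it is 19982 bases, against 7052 in its longest coding transcript, and for *Zmym2* 7860 against 6974. The order between *Trim28* and *Chaf1a* depends on this choice. *Chaf1a* also shares 4648 of its 8854 exon bases with *Ubxn6*, and its level is understated if reads there were left out of the counts. The control values of *Chaf1b* spanned those of *Atrx*, and those of *Rbbp4* spanned those of *Smchd1*, so that these neighbours do not differ beyond their spread. In treated embryos *Sumo2*, *Rif1* and *Trim28* came first in the same order and *Chaf1a* last, and *Chaf1b* stood seventh. By exon length, *Sumo2* is among the shortest of 4 equal classes of the genes tested, whose median log2 fold change was -0.02, *Chaf1b* and *Trim28* are in the third with 0.03, and the other 6 are in the longest with 0.17.

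Promoters of 300 bases, 250 before and 50 after the start, were available from RefSeq (GRCm38.p6) for 8 of the 9 genes, not for *Rif1*. The E2F motifs TTTCCCGC, TTTCGCGC, TTTGCCGC and TTTGGCGC, searched on both strands, were in the promoters of 0 of these 8 genes. Of all 32851 promoters, 744, or 2.26%, hold at least 1 of them. At that share 0 of 8 is near what promoters in general would give, so it says nothing particular about these genes. Only these exact sequences were searched, so E2F sites of a similar form are not shown to be absent.

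The partners of these factors were taken from 6 lists, with 97 genes tested. These lists too were chosen by name with earlier results of these data known. At an unadjusted p of 0.05 in edgeR, 12 of them were lower and 1 was higher, and 60 had a negative log2 fold change (median of the 97, -0.16). DESeq2 called 3 lower and 0 higher at an adjusted p of 0.05, and edgeR 0. Without Mdivi-1 replicate 1 or 2 the lower genes numbered 3 and 6, and without control replicate 1 or 2 the higher ones numbered 4 and 2. Both treated libraries were below both controls for 34 of the 97 and above both for 13. The background shares of all genes are those given above for the 9 members, and they hold for each list below. At an unadjusted p of 0.05 in edgeR they are 7.64% lower and 8.27% higher. Without either Mdivi-1 library fewer of all genes passed as well, and without control replicate 1 more did, as given in the last section. Of the 12 lower genes, 6 belong to the list around *Trim28*, which holds 24 of the 97.

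**Figure D3:**
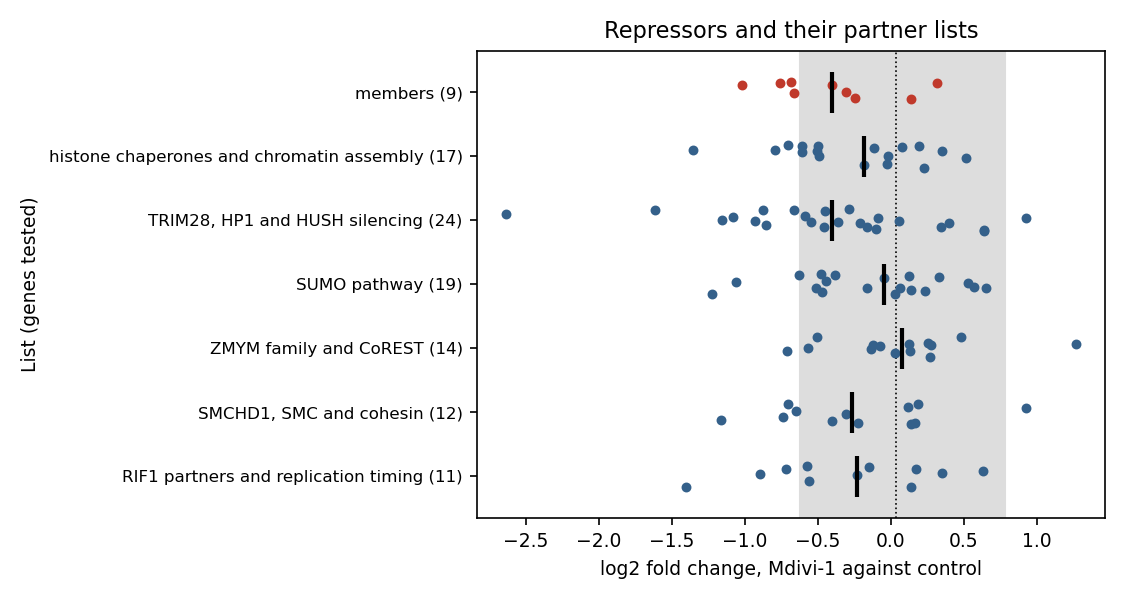
Log2 fold change of Mdivi-1 against control embryos for each tested gene (dots) of the 9 members (red) and the 6 partner lists (blue), with black bars at the medians, all genes tested between their lower and upper quartiles as a grey band and their median as a dotted line; vertical scatter only separates the dots. The list of TRIM28, HP1 and HUSH silencing has a median of -0.41 and that of ZMYM and CoREST a median of 0.08.

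In the list of TRIM28, HP1 and HUSH silencing, 18 of 24 genes had a negative log2 fold change, the median was -0.41, and 6 were lower and 0 higher at an unadjusted p of 0.05 by edgeR. The lower genes numbered 1 and 2 without Mdivi-1 replicate 1 or 2, and 2 genes were higher without control replicate 1. *Pphln1*, *Tasor* and *Mphosph8* encode the subunits of HUSH, the complex that silences young retrotransposons. *Pphln1* was at 302 and 419 CPM in controls and at 150 and 191 CPM after treatment (log2 fold change -1.08, SE 0.32), and DESeq2 gave it an adjusted p of 0.0219. *Tasor* was at 107 and 71.6 CPM in controls and at 31.3 and 48.7 CPM after treatment (log2 fold change -1.16, SE 0.37; DESeq2 adjusted p = 0.0689). *Mphosph8*, named after its values were seen, had a log2 fold change of 0.05 ± 0.39 (SE). *Trim33*, a relative of *Trim28*, was at 188 and 186 CPM in controls and at 102 and 101 CPM in treated embryos, with replicates nearly equal in both groups. The 3 HP1 genes differed in sign: *Cbx3* (HP1γ) was at 1665 and 1830 CPM in controls and at 1040 and 888 CPM in treated embryos (DESeq2 adjusted p = 0.0362). *Cbx5* (HP1α) was at 111 and 158 CPM in controls and at 73.9 and 67.1 CPM in treated embryos. *Cbx1* (HP1β) was at 31.0 and 35.2 CPM in controls and at 57.9 and 45.1 CPM after treatment (log2 fold change 0.64, SE 0.34; edgeR unadjusted p = 0.0975). *Setdb1*, the methyltransferase that TRIM28 carries, had a log2 fold change of -0.16 ± 0.35 (SE), and *Ncl*, the nucleolar protein that acts with TRIM28 on LINE1 RNA, one of -0.46 ± 0.30 (SE).

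Of 19 genes of the SUMO pathway, 10 had a negative and 9 a positive log2 fold change, with a median of -0.05, and 2 were lower and 0 higher at an unadjusted p of 0.05 by edgeR. *Sae1*, a subunit of the E1 enzyme that activates SUMO, was at 47.6 and 31.8 CPM in controls and at 15.4 and 18.5 CPM after treatment (log2 fold change -1.23, SE 0.40; edgeR unadjusted p = 0.0163). *Senp5*, a SUMO protease, was at 57.0 and 62.7 CPM in controls and at 32.5 and 24.8 CPM after treatment (log2 fold change -1.06, SE 0.34; edgeR unadjusted p = 0.0146). *Ranbp2*, a SUMO E3 ligase of the nuclear pore, had a log2 fold change of -0.63 ± 0.30 (SE). The lower genes of the list numbered 1 without either Mdivi-1 library and 4 without control replicate 2, and 2 genes were higher without control replicate 1.

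Among 17 histone chaperones and assembly factors, 12 had a negative log2 fold change, the median was -0.19, and 1 was lower and 0 were higher at an unadjusted p of 0.05 by edgeR. That gene was *Anp32e*, a chaperone that removes the histone variant H2A.Z, at 126 and 208 CPM in controls and at 103 and 89.7 CPM in treated embryos (edgeR unadjusted p = 0.0483). The list had 0 lower genes under scaling by library totals or without either Mdivi-1 library, and 3 without either control library. *Daxx*, the partner of ATRX, was low, at 11.1 and 11.5 CPM in controls and at 4.62 and 4.22 CPM after treatment (log2 fold change -1.36, SE 0.63; edgeR unadjusted p = 0.0638). *Set* and *Nasp*, both histone chaperones, had log2 fold changes of -0.71 ± 0.35 (SE) and -0.51 ± 0.32 (SE). Of opposite sign, and named after their values were seen, were *Asf1a*, a chaperone of histones H3 and H4, at 0.51 ± 0.34 (SE) and *Cabin1* of the HIRA complex at 0.35 ± 0.32 (SE).

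In the list of the ZMYM family and CoREST, the demethylase and deacetylase complex to which ZMYM2 binds, 6 of 14 genes had a negative log2 fold change, the median was 0.08, and 0 were lower and 1 was higher at an unadjusted p of 0.05 by edgeR. *Kdm1a*, the demethylase of that complex, had a log2 fold change of -0.12 ± 0.48 (SE), *Rcor1*, its scaffold, one of -0.71 ± 0.33 (SE), *Hdac1* one of -0.51 ± 0.31 (SE) and *Zmym4*, a relative of *Zmym2*, one of -0.57 ± 0.44 (SE). None of these 4 passed the edgeR test. *Hdac2*, named after its values were seen, had a log2 fold change of 0.28 ± 0.29 (SE). Without any 1 of the 4 libraries, 0 genes of the list were higher.

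In the list of SMCHD1, SMC and cohesin, 7 of 12 genes had a negative log2 fold change, the median was -0.27, and 1 was lower and 0 were higher at an unadjusted p of 0.05 by edgeR. The lower gene was *Smc5*, of the SMC5/6 complex, at 43.1 and 59.4 CPM in controls and at 19.97 and 25.7 CPM in treated embryos. *Lrif1*, whose protein links SMCHD1 to HP1, was at 13.5 and 13.0 CPM in controls and at 27.5 and 22.9 CPM after treatment (log2 fold change 0.93, SE 0.42; edgeR unadjusted p = 0.0586). The cohesin genes *Smc3* and *Stag2* had log2 fold changes of -0.70 ± 0.31 (SE) and -0.65 ± 0.35 (SE). *Smc6*, which encodes the partner of SMC5 and was named after its values were seen, stood at 0.18 ± 0.29 (SE). The list had 0 lower genes without control replicate 2 or Mdivi-1 replicate 1, and 2 without control replicate 1.

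Of 11 partners of RIF1 and genes of replication timing, 7 had a negative log2 fold change, the median was -0.23, and 2 were lower and 0 higher at an unadjusted p of 0.05 by edgeR. *Mad2l2*, which acts below RIF1 in the choice of how DNA breaks are repaired, was at 146 and 139 CPM in controls and at 46.1 and 62.0 CPM in treated embryos. Its groups were far apart for the spread within them (log2 fold change -1.40, SE 0.31; DESeq2 adjusted p = 0.0035), and edgeR gave it an adjusted p of 0.153. *Ppp1ca*, a catalytic subunit of protein phosphatase 1, was at 62.9 and 60.5 CPM in controls and at 26.8 and 39.5 CPM in treated embryos (edgeR unadjusted p = 0.0334). *Ppp1cc*, another catalytic subunit, and *Cdc7*, the kinase that starts replication, had log2 fold changes of -0.56 ± 0.32 (SE) and -0.72 ± 0.51 (SE). Of opposite sign, and named after their values were seen, were the catalytic subunit *Ppp1cb* at 0.14 ± 0.38 (SE), the CDC7 partner *Dbf4* at 0.35 ± 0.30 (SE) and *Shld2* of shieldin at 0.63 ± 0.45 (SE). The list had 1 lower gene under scaling by library totals and without control replicate 2 or Mdivi-1 replicate 1.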

How the data were processed

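Raw counts of late 2C embryos were analysed in 2 control and 2 Mdivi-1 libraries, grouped by the labels. The authors trimmed reads with cutadapt 1.16, mapped them with STAR to mm10 and deposited counts of uniquely mapped reads in exons. Which strand column of STAR was taken is not given in the sources used. The deposited table also holds a signal, the count divided by a size factor for each library, which served only to check the counts, and the authors' own DESeq2 comparison, which was not used. Of 26022 genes, 25995 were found in GENCODE M21 by Ensembl ID, and 614 have the same start and end there, so coordinates are from GENCODE M21 on GRCm38.

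The filterByExpr step of edgeR 4.0.16 (minimum count 10) left 14259 genes. Their counts were scaled with TMM and tested by edgeR's quasi-likelihood test, two-sided, with Benjamini-Hochberg adjustment over all of them. Standard errors were worked back from this test. TMM factors were 1.10 and 0.834 in controls and 1.05 and 1.04 in treated embryos, and the biological coefficient of variation was 0.66. DESeq2 1.42.0 and limma-voom (limma 3.58.1) were run beside it in R 4.3.3. Missing adjusted p-values of DESeq2 stayed missing and were not counted. The steps were tested on simulated data.

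The members and the gene lists were chosen with earlier results of these data known. All 9 members were named, with up to 4 genes of smallest unadjusted p in each partner list and their closest relatives. Some genes that this rule names are not reported here. The symbols *Nap1l1*, *Zscan4e*, *Dux* and *Prm1* were not analysed here. Copies of transcripts were found with blastn 2.17.0. The alternatives were 2 other scalings, 2 other filters, the other tests, a replicate block and each library left out in turn. Nothing says whether libraries came from separate litters, so the p-values measure the spread between these libraries, which may be technical.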

Additional observations from a re-analysis of the deposited data

How the results depend on the processing

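Of 473 alternative values, 407 were classed as the same, 48 moved and 14 changed sign. The other 4 passed a threshold they had not passed before (*Sumo2*, *Pphln1*, *Mad2l2* and *Cbx3* by DESeq2). A gene was the same if it kept its sign and its side of an adjusted p of 0.05. No gene was under that p in the edgeR test reported above, so none could lose a call. Counts were the same within a fixed ratio, and medians and ratios within the spread between libraries. The other scalings kept the sign of all 9 members. Scaling by library totals moved the median of all genes from 0.03 to 0.14 and that of the SUMO pathway to 0.044. DESeq2 called 0 partner genes higher. Without filter, edgeR called 819 genes at adjusted p under 0.05 and limma-voom 202 with it, with no member among them.

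Without 1 library at a time, 0 to 2 members, all lower, were under an unadjusted p of 0.05 with edgeR, and DESeq2 called 0 to 1. By edgeR these were *Sumo2* and *Chaf1b* without control replicate 1, *Sumo2* and *Trim28* without control replicate 2, and none without either Mdivi-1 library. Of all genes, 20.8% and 15.3% were under that p without a control library and 7.49% and 9.93% without a treated one. A group left with 1 library is assumed to vary like the other. The lower partner genes numbered 3 to 15 and the higher ones 0 to 4. Log2 fold changes spanned -0.81 to 0.13 for *Rbbp4*, -0.20 to 0.30 for *Rbbp7*, -0.48 to 0.085 for *Setdb1* and -0.58 to 0.52 for *Kdm1a*. Medians spanned -0.34 to 0.088 for chaperones, -0.22 to 0.13 for the SUMO pathway and -0.42 to 0.41 for ZMYM and CoREST. The log2 ratio difference spanned -0.58 to 0.74 for *Chaf1a* to *Chaf1b* and -0.99 to 0.20 for *Rbbp4* to *Rbbp7*. The cause was not tested.

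Deviations of libraries with the same number had a correlation of 0.0081 over the genes tested, so no shift shared by number was seen. With 2 libraries a group this is 1 pair of deviations, which cannot show whether libraries of the same number share a litter or day. With the replicate block, 1 member was under an unadjusted p of 0.05 with edgeR, *Sumo2*, as without it. With 2 libraries a group and amplified reads, a difference that missed the threshold is not shown to be absent.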
